A study of Mus musculus with 5 samples.

Results

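Integrins, cadherins, claudins and connexins are the membrane proteins by which animal cells hold on to matrix and to each other. The genes described here are all those whose symbol on the array starts with Itga, Itgb, Cldn, Gja, Gjb or Gjc, or with Cdh and a digit, with Cdh1 and Itga6 left out. This gave 82 probes for 81 genes among the 16087 gene symbols of the array, with the brightest probe, averaged over all 5 arrays, standing for its gene. The symbols cover 15 integrin alpha chains, 7 integrin beta chains, 22 cadherins, 17 claudins and 12 connexins. The other 8 carry such a prefix without belonging to the family, for example Itgb4bp, now called Eif6, a ribosome assembly factor. The array's Gja7 is now Gjc1 (connexin 45), and the array also has a probe called Gjc1, a name once used for Gjd3 too, so that probe is given by its array symbol only.

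Integrins are pairs of an alpha and a beta chain that bind matrix proteins such as laminin, fibronectin and collagen and connect them to actin. Classical cadherins join neighbouring cells through calcium-dependent contacts and catenins, claudins seal tight junctions, and connexins form the gap junction channels that pass ions and small metabolites between cells. Mouse ES cells grow as compact epithelial colonies that are coupled by gap junctions, and germ cell precursors leave their epithelium and migrate, so these families bear on how such cells sit in their surroundings.

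All arrays hold male ES cells of strain 129 (E14tg2a derivatives) that carry myristoylated Akt fused to Mer, a kinase that 4-hydroxytamoxifen (4OHT) switches on. The groups are Akt-spheres of line 21 and of line 42, labelled as PGC-like (like primordial germ cells) and grown with 1 µM 4OHT on OP9 stromal cells (1 array each), ES-like cells reverted from line 21 spheres (1 array), line 21 ES cells with 1 µM 4OHT (1 array) and line 21 ES cells without it (1 array). One label of the reverted cells names transient 4OHT on embryonic fibroblasts. Line 42 is held as spheres only, its ES cells being not analysed here, so line and replicate cannot be told apart in the spheres. The OP9 cells were removed by letting them settle on a dish. The last 3 arrays are called the ES-type arrays below. Each array has 22871 probes and lists a value for 20787 to 21479 of them, and the number of arrays limits every comparison.

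The labelled cell types were set against marker genes. Nanog read 5523 and 4003 in spheres of lines 21 and 42, against 3839 to 5480 on the ES-type arrays. Of 6 ES cell markers, 3 (Klf4, Tdgf1 and Fgf4) fell in spheres at limma's adjusted p of 0.05. The share of all genes that fell is given with that comparison below. Zfp42 had the largest drop of the 6 markers but just missed the threshold (86.1 and 1030 against 11370 to 15996, log2 -5.51, limma adjusted p = 0.0506). Esrrb was also lower in both lines without passing (7.96 and 13.1 against 23.4 to 40.6, limma adjusted p = 0.0712). Of 6 early germ cell markers none passed the test, and Tfap2c, at 1943 and 1581 in spheres against 497 to 998, had a limma adjusted p of 0.127. Nanos3 (476 and 1084 against 219 to 326) and Prdm14 (205 and 227 against 121 to 151) were likewise higher in both lines. The groups overlapped for Dppa3 (223 in line 21 and 9198 in line 42 spheres against 171 to 1626). They also overlapped for Kit (213 and 66.5 against 11.2 to 73) and Prdm1 (47.4 and 21.1 against 30.8 to 55.8). The summed signal of 10 stromal markers was 421 and 218 in spheres and 614 to 738 on the ES-type arrays, and Thy1 among them fell (24.8 and 16.1 against 230 to 464, limma adjusted p = 0.0147). Without Thy1 the other 9 summed to 396 and 202 in spheres and 273 to 384 on the ES-type arrays, so line 21 spheres were then the highest array and line 42 spheres the lowest. The summed signal of 6 adipocyte markers was 625 and 512 in spheres and 138 to 362 on the ES-type arrays. Fabp4 among them rose (183 and 143 against 4.63 to 6.07, limma adjusted p = 0.00437), but was bright in spheres alone. Lpl (325 and 208 against 52.7 to 233), Cidec, Plin1 and Pparg overlapped. Adipoq was higher in spheres but too dim to be tested (12.2 and 12 against 3.31 to 6.73). The sums of 7 blood markers were 77.8 and 109 against 101 to 129, and of 6 endothelial markers 118 and 222 against 148 to 411. The sums of 6 primitive endoderm markers, with Gata6 falling, were 62.4 and 48.1 in spheres against 120 to 241, and of 4 trophectoderm markers 2400 and 1938 against 738 to 1327. Tfap2c, already counted with germ cell markers, made up 1943 and 1581 of the trophectoderm sums in spheres and 497 to 998 elsewhere. In bulk RNA, fewer cells of a type and less RNA per cell cannot be told apart.

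Against line 21 ES cells without 4OHT, 4 of the 34 genes bright enough to be compared were at least 2-fold apart in both sphere lines. The share over 10300 genes was 10.5%. Itgb7, Gja1 and Cldn6 were on the lower side (6.00% of all genes) and Cldn11 on the higher side (4.51%). Itgb7 was bright enough through the ES cells alone and Cldn11 through the spheres alone. The promoters of these 4 genes are shown here because they were past the fold limit in both lines against that culture. Each runs from 250 bases before to 50 bases after the gene's start, in the gene's own direction, from RefSeq's annotation of GRCm38.p6. Itgb7 lies at chr15:102231886-102232185 on the minus strand, and on the plus strand lie Gja1 at chr10:56377050-56377349, Cldn6 at chr17:23679115-23679414 and Cldn11 at chr3:31149670-31149969. Capitals mark matches, on either strand, to the motifs searched.
Itgb7: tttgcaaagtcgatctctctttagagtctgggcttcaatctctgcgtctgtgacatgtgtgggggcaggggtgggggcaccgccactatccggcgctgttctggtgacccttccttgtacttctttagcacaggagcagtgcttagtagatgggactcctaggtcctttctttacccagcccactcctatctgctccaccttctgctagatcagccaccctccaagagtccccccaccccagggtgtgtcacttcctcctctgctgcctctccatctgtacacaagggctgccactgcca
Gja1: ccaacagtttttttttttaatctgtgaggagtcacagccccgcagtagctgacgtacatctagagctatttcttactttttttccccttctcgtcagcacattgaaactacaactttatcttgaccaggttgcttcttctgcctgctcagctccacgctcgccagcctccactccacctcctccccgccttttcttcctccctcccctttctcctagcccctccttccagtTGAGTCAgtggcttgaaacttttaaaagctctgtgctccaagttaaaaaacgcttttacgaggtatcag
Cldn6: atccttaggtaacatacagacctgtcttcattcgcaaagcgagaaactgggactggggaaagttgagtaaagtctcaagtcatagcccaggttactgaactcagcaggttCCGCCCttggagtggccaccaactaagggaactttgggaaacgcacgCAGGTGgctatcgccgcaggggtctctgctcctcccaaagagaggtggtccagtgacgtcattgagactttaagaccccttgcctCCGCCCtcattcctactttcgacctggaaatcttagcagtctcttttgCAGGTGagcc
Cldn11: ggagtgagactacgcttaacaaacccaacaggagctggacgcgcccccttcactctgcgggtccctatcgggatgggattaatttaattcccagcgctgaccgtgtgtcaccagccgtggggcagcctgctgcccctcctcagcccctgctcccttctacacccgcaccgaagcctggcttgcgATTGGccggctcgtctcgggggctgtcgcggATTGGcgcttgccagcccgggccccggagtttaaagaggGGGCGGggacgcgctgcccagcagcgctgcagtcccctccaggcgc

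The 7 motifs were the GC box GGGCGG, the CCAAT box CCAAT, the TATA box TATAAA, the E-box CACCTG read by Snail and Zeb factors, the FoxO core GTAAACA, the AP-1 element TGANTCA and the Klf core GGGTGTGG. None of them overlapped another in these windows. The Gja1 window holds 1 AP-1 element, which starts 19 bases before the gene's start, and 7.93% of 27025 listed promoters of the same length have one. The Cldn6 window holds 2 E-boxes and 2 GC boxes, which occur in 20% and 35.9% of promoters. The Cldn11 window holds 2 CCAAT boxes and 1 GC box, with the CCAAT box in 37.9% of promoters. The Itgb7 window has no match, and the TATA box, FoxO core and Klf core are in none of the 4 windows (14.2%, 3.55% and 3.57% of all promoters). G and C make up 56.3% of the Itgb7 window, 47.7% of Gja1, 52.3% of Cldn6 and 66.3% of Cldn11. A match is a run of letters and not a site.

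Most of the genes gave little signal. A gene was tested where every array of the comparison listed it and its value on 1 or more of them was at or above that array's 40th percentile, an intensity of 28.6 to 29.3. For spheres against the 3 ES-type arrays, 35 of the 81 genes passed, and 46 did not, with their highest value at 27.6. Among those 46 were 10 of 15 integrin alpha chains, 16 of 22 cadherins, 9 of 17 claudins and 6 of 12 connexins. Itga5, the alpha chain of the classical fibronectin receptor, read 14.1 and 16 in spheres and 14.7 to 20.8 on the ES-type arrays. Of the chains of blood and vessel cells, Cdh5, the cadherin of endothelium, was listed only in line 42 spheres, at 5.23, and Itga2b of platelets and Itgam of myeloid cells stayed at or below 7.95 where listed. Itgal of leukocytes read 3.48 in line 42 spheres, against 3.2 in reverted cells and 14.3 and 13.1 in ES cells with and without 4OHT, with no value in line 21 spheres. The muscle cadherin Cdh15 read 14.3 and 24.3 in spheres and 4.66 in ES cells with 4OHT, with no value on the other 2 arrays.

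**Figure D1:**
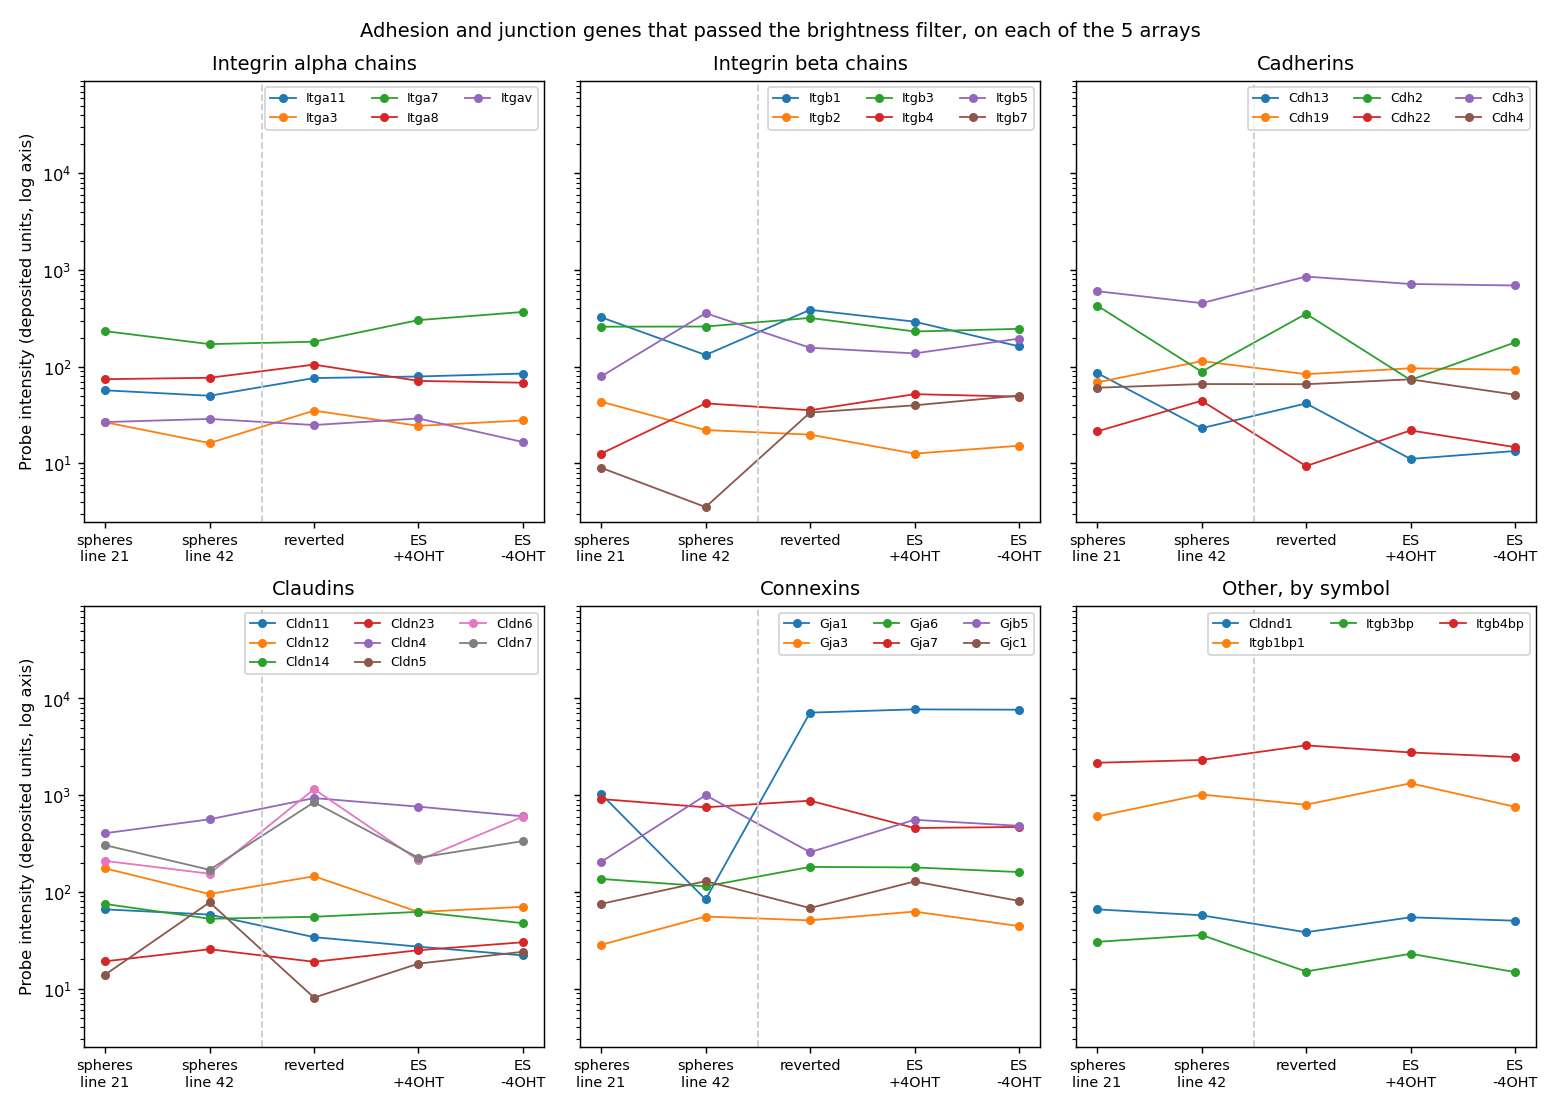
Probe intensity (log axis, deposited units) of the 35 genes that passed the brightness filter, in a panel for each family, on the 5 single arrays named along the horizontal axis. Each point is 1 array, lines only join the points of a gene, and the dashed line parts spheres from ES-type arrays; Gja1 stands at 1025 and 83.5 in spheres against 7137 to 7718, while Itgb3 stays between 231 and 319 on all 5 arrays.

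Spheres (n = 2) were compared with the ES-type arrays (n = 3) to find the genes in which both lines depart from all ES-like cultures. Of the 35 genes tested, Itgb7 fell and no other gene passed limma's adjusted p of 0.05. Over all 10608 genes tested, 1.47% fell and 0.943% rose, 2.41% in all. The 256 calls over all genes became 32 without ES cells with 4OHT and 0 without ES cells without 4OHT. Without reverted cells there were 284 calls, of which only 169 were among the 256. Of the 35, 6 had an unadjusted p under 0.05, against 18.9% of all genes. Their median log2 difference was -0.03, with 16 above and 19 below 0, beside a median of 0.00 over all genes. Gja1 and Itgb7 were the members whose sphere values both lay at least 2-fold below the lowest ES-type value, as did 2.64% of all genes, and none lay 2-fold above the highest (1.76%, and 4.40% either way). Without any fold limit, 5 genes lay wholly higher in spheres and 7 wholly lower, where the shares over all genes were 19.1% and 18.4%, 37.5% together. The groups overlapped for the other 23. Of the 5 higher genes, Cdh22, Itgb2 and Itgb3bp passed the brightness filter through the sphere arrays alone, as did Cldn5. Their selection therefore favoured higher values in spheres.

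Itgb7 encodes the beta 7 chain, which pairs with alpha 4 or alpha E on lymphocytes and binds the vessel protein MAdCAM-1 or E-cadherin. It read 8.99 and 3.53 in line 21 and line 42 spheres, against 33.5 in reverted cells, 39.8 in ES cells with 4OHT and 50.2 in ES cells without it. Both sphere values were well below every ES-type value and near the lowest listed values of their arrays (3.4 and 3.19). Itgb7 passed the brightness filter through the ES-type arrays alone, as did Cldn23 and Itga3, so a difference was built into its selection and the size below is not a measured level ratio. The fitted difference was log2 -2.62 (SE 0.42, limma adjusted p = 0.0419). The call was lost without the line 42 sphere array (adjusted p = 0.091), without reverted cells (0.0572), without ES cells with 4OHT (0.131) and without ES cells without 4OHT (0.176), and with a pseudocount of 16 (log2 -1.36, adjusted p = 0.0561). Its partner Itga4 read 3.74 and 6.2 in spheres and at most 4.96 on the ES-type arrays that list it, and its ligand Madcam1 53.8 and 56.2 against 58.3 to 64.7.

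Gja1 encodes connexin 43, the gap junction protein of many tissues, ES cells included. It read 1025 in line 21 spheres and 83.5 in line 42 spheres, against 7137 in reverted cells, 7718 in ES cells with 4OHT and 7656 in ES cells without it. The 3 ES-type values lay close together, and both sphere values lay far below them and far from each other. The difference was 25.4-fold, the largest of the 35, but it did not pass (log2 -4.67, SE 0.99, limma adjusted p = 0.0747). With 1 sphere array left out the adjusted p was 0.0165 without line 21 (log2 -6.49) and 0.0284 without line 42 (-2.84), but these fits take the spread from the ES-type arrays alone and assume that the lone sphere array varies like them. It was 0.112 without reverted cells, 0.193 without ES cells with 4OHT and 0.237 without ES cells without 4OHT. Gja1 is also a gene of stromal cells, and the 9 stromal markers other than Thy1 summed to 396 and 202 in line 21 and line 42 spheres, against 273 to 384 on the ES-type arrays. Their part in the result was not tested.

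**Figure D2:**
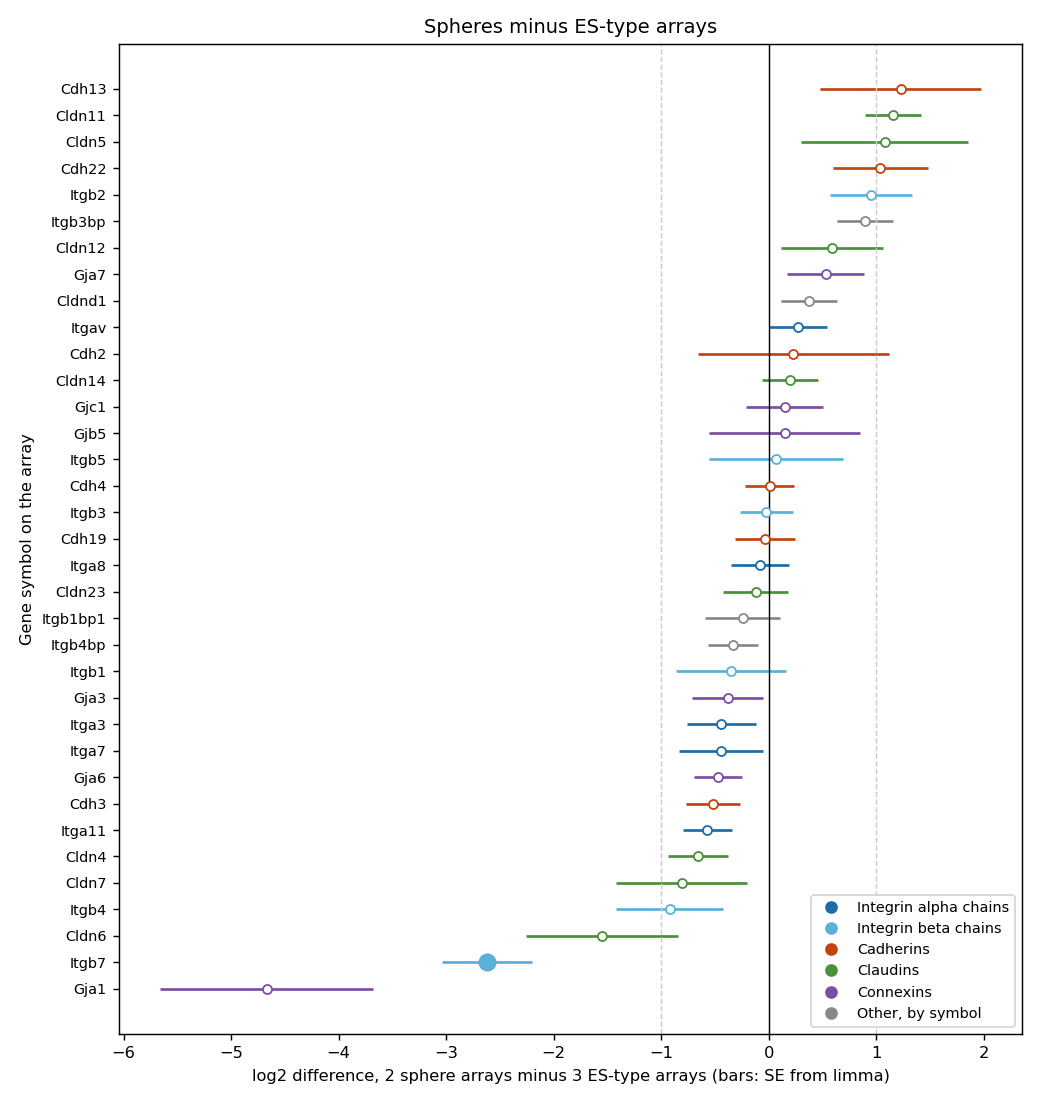
Log2 difference of the 2 sphere arrays minus the 3 ES-type arrays for each of the 35 tested genes, with limma's SE as bars and the families by colour. The large filled point is the 1 gene past the threshold, Itgb7; Gja1 lies furthest to the left at -4.67 with a wide SE of 0.99, and dashed lines stand at 2-fold.

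The other connexins showed no such drop. Gja7 (connexin 45, now Gjc1) read 912 and 749 in spheres, against 877 in reverted cells and 457 and 469 in ES cells with and without 4OHT. Spheres and reverted cells were thus both above the 2 ES cell arrays (log2 0.53 for spheres minus ES-type arrays, limma adjusted p = 0.486). Gja6 (connexin 33, known from testis) read 136 and 114 in spheres and 160.1 to 181 on the ES-type arrays, with no overlap but a log2 difference of -0.47 (adjusted p = 0.328). Gja3, a lens connexin, read 28.3 and 55.5 against 44.2 to 62.5, and the probe called Gjc1 75.1 and 129 against 68 to 128. Of the pannexins, which form related channels in single membranes, Panx1 read 108 and 171 in spheres against 128 to 250.

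None of the 8 claudins tested passed, and 4 had a log2 difference above 0 and 4 below, with a median of 0.04. Cldn6, a claudin of early embryonic epithelia, read 209 and 154 in spheres, against 1154 in reverted cells, 212 in ES cells with 4OHT and 600 in ES cells without it. Spheres were at the level of ES cells with 4OHT or below it, and well under the other 2 arrays (log2 -1.55, SE 0.71, limma adjusted p = 0.309). Cldn7, of basolateral epithelial membranes, read 304 and 169 in spheres, against 845 in reverted cells and 225 and 335 in ES cells with and without 4OHT, so the groups overlapped. Cldn4, which seals epithelia against ions, read 404 and 563 in spheres and 604 to 933 on the ES-type arrays, without overlap (log2 -0.66, adjusted p = 0.275).

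Cldn11, the claudin of myelin and of Sertoli cell junctions, read 65.9 and 58.2 in spheres, against 34 in reverted cells, 27.1 in ES cells with 4OHT and 22 in ES cells without it. Both sphere arrays were higher than all ES-type arrays (log2 1.16, SE 0.26, 2.23-fold), with a limma adjusted p of 0.0824. Cldn12 read 175 and 94.9 in spheres, against 145 in reverted cells and 61.9 and 70 in ES cells with and without 4OHT. Cldn14, of inner ear and kidney, read 74.9 and 52.7 in spheres and 47.4 to 62.1 on the ES-type arrays. Cldn23 read 19.1 and 25.5 in spheres, against 18.9 to 30.1, and overlapped likewise.

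Among cadherins, Cdh3 (P-cadherin) read 603 and 454 in spheres, against 855 in reverted cells and 716 and 691 in ES cells with and without 4OHT. The groups did not overlap, and the log2 difference of -0.52 did not pass (SE 0.25, limma adjusted p = 0.342). Cdh4 (R-cadherin) stayed between 51.3 and 73.9 on all 5 arrays. Cdh22, a cadherin of brain, read 21.4 and 44.4 in spheres and 9.36 to 21.9 on the ES-type arrays. After centring both sphere values lay above the ES-type values (log2 1.04, limma adjusted p = 0.281), but Cdh22 passed the brightness filter through the spheres alone. Cdh2 (N-cadherin) and Cdh13 (T-cadherin, which is held by a lipid anchor and has no cytoplasmic tail) differed mainly between the lines and are given below.

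Of the integrin chains, Itgb1, the common partner of most matrix-binding alpha chains, read 324 and 132 in spheres and 162 to 387 on the ES-type arrays, with line 21 spheres inside that range and line 42 spheres below it. Itgb3, which pairs with alpha V, read 259 and 260 in spheres against 231 to 319. Itgb2, the leukocyte beta chain, read 43.4 and 22.1 in spheres and 12.6 to 19.8 on the ES-type arrays, without overlap (log2 0.95, SE 0.38, limma adjusted p = 0.254). Because Itgb2 passed the brightness filter through the spheres alone, its selection favoured that direction. Its alpha partners Itgal, Itgam and Itgax did not exceed 7.9 on either sphere array. Itga11, a collagen receptor chain, read 56.9 and 50 in spheres and 76.2 to 84.8 on the ES-type arrays (log2 -0.57, adjusted p = 0.259).

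The laminin receptor chain Itga7 read 233 and 171 in spheres, against 181 in reverted cells and 303 and 368 in ES cells with and without 4OHT. Itga8, which binds nephronectin, read 74.2 and 76.7 in spheres against 68.2 to 105, and Itgav, the alpha chain of vitronectin receptors, 26.7 and 28.8 against 16.6 to 29.1. Itga3, another laminin receptor chain, read 26.6 and 16.2 in spheres against 24.4 to 35.1. In these 4 genes the groups overlapped, and none passed (adjusted p of 0.522 to 0.91).

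Of the 4 tested genes that only share a prefix, Itgb3bp, which encodes a centromere protein, read 30.4 and 35.8 in spheres and 14.8 to 22.9 on the ES-type arrays (log2 0.90, SE 0.26, limma adjusted p = 0.149). Itgb3bp passed the brightness filter through the spheres alone, so its selection favoured that direction. Itgb4bp (Eif6) read 2164 and 2311 in spheres against 2474 to 3274. Itgb1bp1, which binds the tail of beta 1 integrin and holds it inactive, read 602 and 1015 in spheres, against 797 in reverted cells, 1327 in ES cells with 4OHT and 758 in ES cells without it. Cldnd1 read 65.9 and 57.2 in spheres and 38.2 to 54.5 on the ES-type arrays.

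The partners of these proteins were counted from lists of 7 kinds. Of 9 tested catenins and nectins, 12 tight junction proteins, 18 integrin adaptors, 7 desmosome genes, 7 other cadherin superfamily genes and 2 pannexins, limma called none in spheres against ES-type arrays, where it called 2.41% of all genes. Of 15 integrin ligands 1 was called, where 1.47% of all genes fell: Nid1, the basement membrane linker nidogen, fell, with 82 and 76.8 in spheres against 465 to 845 (log2 -2.85, SE 0.35, limma adjusted p = 0.0258). The ligands had a median log2 difference of -0.75. The median was -0.46 for catenins and nectins, -0.21 for integrin adaptors, -0.23 for desmosome genes and 0.07 for tight junction proteins, beside 0.00 over all genes.

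At least 2-fold below all ES-type arrays, as 2.64% of all genes were, but short of the threshold, lay Jam2, a tight junction immunoglobulin protein, at 28.7 and 33.2 in spheres against 193 to 1776 (limma adjusted p = 0.0682), the desmosome plaque gene Pkp3 at 23.4 and 62 against 144 to 167 (0.073) and the ligand Spp1 (osteopontin) at 1471 and 305 against 4213 to 9078 (0.0812). Jup, the plakoglobin shared by adherens junctions and desmosomes, read 38.1 and 54 in spheres against 103 to 133 (0.0686). Ctnnb1, the catenin that binds cadherin tails, read 2939 and 2138 in spheres against 2359 to 3223.

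The spheres were next set against each ES-type culture in turn, with a gene counted where both lines lay at least 2-fold apart the same way. These 3 comparisons share the sphere arrays, and limma, left with a single degree of freedom for the spread, called 0 genes in each (963, 1212 and 917 at an unadjusted p under 0.05 against ES cells without 4OHT, ES cells with 4OHT and reverted cells). Against ES cells without 4OHT, 3 of 34 tested genes were lower (Itgb7, Gja1 and Cldn6) and 1 higher (Cldn11), where the shares over 10300 genes were 6.00% and 4.51%, 10.5% together. Against ES cells with 4OHT, Itgb7 and Gja1 were lower and Cldn11 and Cdh13 higher, that is 2 and 2 of 33, where the shares over 10424 genes were 6.86% and 5.99%, 12.8% together. Against reverted cells, 4 of 34 were lower (Itgb7, Gja1, Cldn6 and Cldn7) and 2 higher (Cdh22 and Itgb3bp), where the shares over 10347 genes were 5.81% and 4.21%, 10.0% together. In this last comparison Cdh22 and Itgb3bp passed the brightness filter through the spheres alone, and Itgb7 through the reverted cells alone. Against each of the ES cell arrays, Cldn11 passed it through the spheres alone and Itgb7 through the ES cells alone. Cdh13 passed against ES cells with 4OHT through line 21 spheres alone. The selection of these genes therefore favoured the direction in which they were counted.

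The size of the Gja1 difference was much the same against each culture, at log2 -4.78, -4.65 and -4.58 against ES cells without 4OHT, ES cells with 4OHT and reverted cells. For Cldn6 it was -1.81, -0.18 and -2.65, and for Cldn7 -0.64, 0.07 and -1.87 in the same order. Against the single array of ES cells with 4OHT, these means hide lines on opposite sides of 0. Line 21 and line 42 stood at 0.07 and -0.42 for Cldn6, and at 0.52 and -0.38 for Cldn7. Against the same cells Cldn11 stood at log2 1.23, Cldn12 at 1.11, Cldn5 at 0.90, Cldn14 at 0.08 and Cldn4 at -0.61. The difference between those contrasts was not tested.

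4OHT in ES cell culture was examined with 1 array on each side and no replicate check. Of 28 genes tested, Cldn6 and Cdh2 were at least 2-fold lower with 4OHT and none was 2-fold higher, where the shares over 9866 genes were 2.39% and 2.55%, 4.95% together. Cldn6 read 212 with and 600 without 4OHT (log2 -1.64), and Cdh2, which joins neural and mesenchymal cells, 72.8 with and 178 without (log2 -1.41). On the higher side Itgb1 came nearest, at 292 with and 162 without 4OHT (log2 0.70). Gja1 (log2 -0.12), Gjb5 (0.07) and Cdh3 (-0.08) were at nearly the same level on both arrays. The median size of a difference was 0.28 over the 28 genes and 0.26 over all.

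Reverted cells were set against the ES cells without 4OHT, again 1 array each, to see how far the levels came back. Of 30 genes tested, 3 were at least 2-fold higher in reverted cells (Cdh13, Cldn7 and Itgb1) and 2 lower (Gjb5 and Itga7), where the shares over 9955 genes were 5.20% and 6.34%, 11.5% together. Cldn7 read 845 in reverted and 335 in ES cells (log2 1.23), Itgb1 387 and 162 (1.15), and Cdh13 41.6 and 13.4 (1.46). Cdh13 passed the brightness filter through the reverted cells alone, so its selection favoured that direction. Itga7 read 181 in reverted and 368 in ES cells (log2 -1.12). Gjb5, at 257 and 482, stood at the limit and was not 2-fold apart without centring or with quantile normalization. Gja1, at 7137 in reverted cells against 7656, and Itgb7, at 33.5 against 50.2, were both near the ES cell level, unlike in the spheres. Cldn6, at 1154 against 600, was above it.

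**Figure D3:**
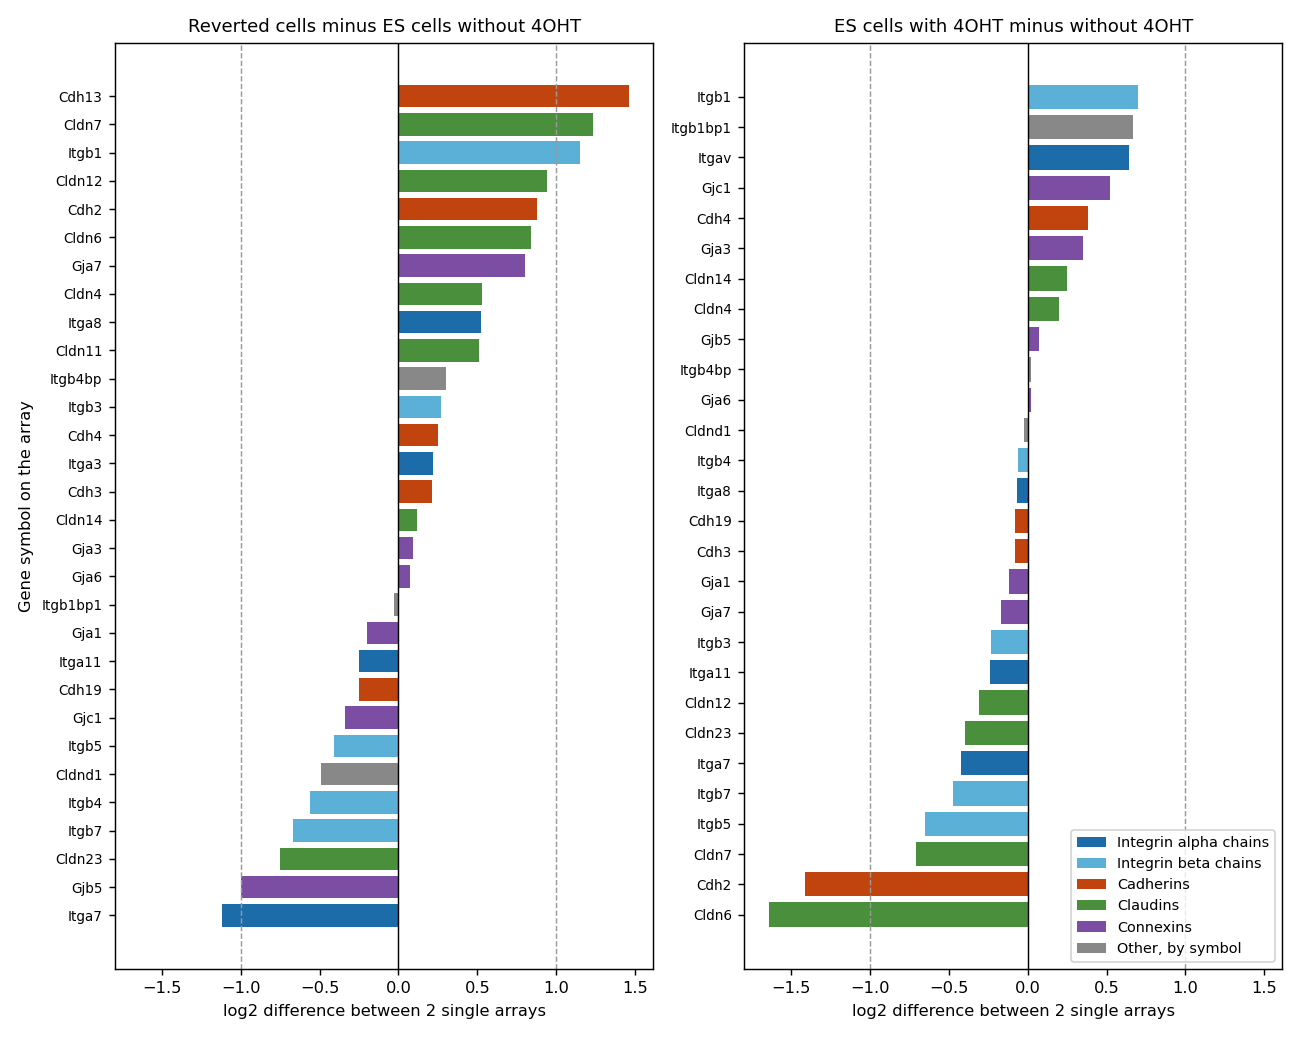
Log2 difference between 2 single arrays for each gene tested, in reverted cells minus ES cells without 4OHT (left) and in ES cells with minus without 4OHT (right), with families by colour and dashed lines at 2-fold. On the left 3 bars pass the upper line and 2 reach or pass the lower one; on the right Cldn6 and Cdh2 pass the lower line and no bar reaches the upper one.

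The sphere lines were also set against each other. Between line 42 and line 21 spheres, 8 of 32 tested genes were at least 2-fold apart, 4 higher in line 42 (Cldn5, Gjb5, Itgb5 and Itgb4) and 4 lower (Gja1, Cdh2, Cdh13 and Itgb1), where the shares over 9971 genes were 7.90% higher and 7.80% lower, 15.7% together. The median size of the difference was 0.61 over the 32 and 0.41 over all genes. With 1 array a line there is no replicate check, and the excess over all genes was not tested. Cldn5 and Itgb4 passed the brightness filter through line 42 alone and Cdh13 through line 21 alone, so their selection favoured a difference.

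Cldn5, the claudin of endothelium, read 77.8 in line 42 and 13.9 in line 21 spheres (log2 2.35), against 8.05 to 24 on the ES-type arrays. Line 42 alone was high. Itgb4, the beta chain of hemidesmosomes, read 41.7 in line 42 and 12.6 in line 21 spheres, against 35.4 to 51.9, so here line 21 alone was low. Gjb5 (a connexin of trophoblast and skin) read 999 in line 42 and 204 in line 21 spheres (log2 2.23), against 257 to 556, and Itgb5, a vitronectin receptor chain, 357 and 79.2 (log2 2.11), against 137 to 195. For both, line 42 was above and line 21 below all ES-type arrays.

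Cdh2 read 88.7 in line 42 and 428 in line 21 spheres (log2 -2.31), against 352 in reverted cells, 72.8 in ES cells with 4OHT and 178 in ES cells without it. The line 21 spheres and the cells reverted from them were the highest 2 arrays. Cdh13 read 23.1 in line 42 and 86 in line 21 spheres (log2 -1.91), against 41.6 in reverted cells and 11.1 and 13.4 in ES cells with and without 4OHT, with the same 2 arrays on top. The neural marker Nes, at 81.3 in line 42 and 284 in line 21 spheres, against 223 in reverted cells and 45.5 and 49.8 in ES cells with and without 4OHT, had the same 2 arrays on top. Of the other neuroectoderm markers, Tubb3 did not follow (601 in line 42 and 451 in line 21 spheres, against 171 in reverted cells and 271 and 373 in ES cells with and without 4OHT). Pax6 was highest in ES cells without 4OHT, at 36, and Map2 stayed at or below 6.49. The sum of the 4 neuroectoderm markers was 692 and 765 in line 42 and line 21 spheres and 340 to 465 on the ES-type arrays, and their part in the result was not tested.

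**Figure D4:**
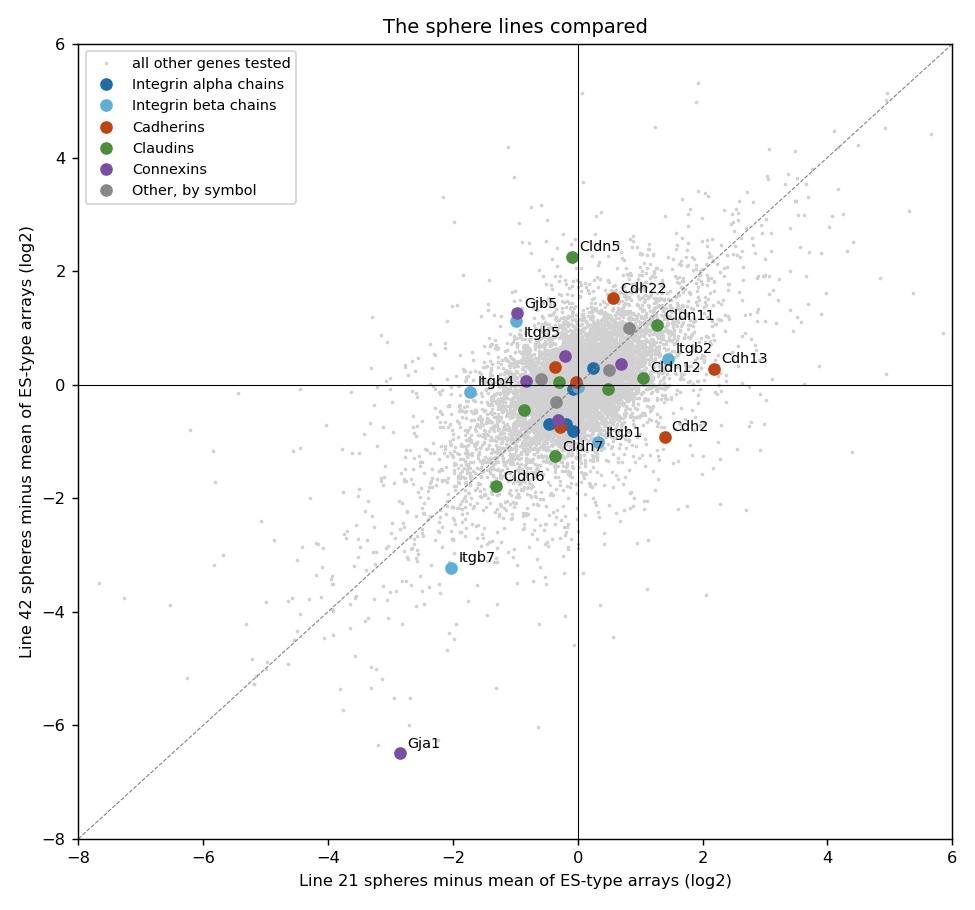
Log2 difference of line 21 spheres (horizontal) and line 42 spheres (vertical) from the mean of the 3 ES-type arrays, for the 35 tested genes in colour and all other tested genes in grey; the dashed line marks equal differences. Genes at least 2-fold away in either line are named: Gja1 and Itgb7 lie at the lower left, Cldn5, Gjb5 and Itgb5 are high in line 42 alone, and Cdh2 and Cdh13 in line 21 alone.

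The line 21 spheres and the cells reverted from them were compared with both ES cell arrays of that line. This description was chosen after the values were seen. Cdh13 was at least 2-fold above both ES cell arrays in both derivatives (86 and 41.6 against 11.1 and 13.4), and Gjb5 below them (204 and 257 against 556 and 482). Gjb5 reached the 2-fold limit against the last of these only after centring. These are 1 higher and 1 lower of 33 genes tested, where the shares over 10478 genes were 1.63% higher and 2.65% lower, 4.29% together. Cdh13 passed the brightness filter here through the line 21 spheres and reverted cells alone, so its selection favoured higher values in them.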

How the data were processed

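Total RNA was amplified to amino allyl antisense RNA and labelled for 1-colour arrays of Toray, per the labels' protocols. The deposited values are linear probe intensity values with a median of 50 on each array; for the scanner, the background correction, the normalization and the rule behind empty cells (6.09% to 9.11% of probes), the method is not given in the sources used here. Empty cells were not filled in. Of 22871 probes, 16264 had 1 gene symbol, 0 several and 6607 none. All 81 symbols were found in RefSeq's gene table of GRCm38.p6, 3 of them as older names. Log2(value + 1) was centred on each array's median (shifts of -0.06 to 0.08), so fold differences understate the change of dim probes. limma 3.58.1 (R 4.3.3; lmFit, eBayes, Benjamini-Hochberg over all genes tested) gave the adjusted p-values. Spheres against the ES-type arrays had 3 residual degrees of freedom, and the ES-type spread includes differences between its cultures. Against 1 ES-type array, the fit had 4 group means and 1 residual degree of freedom, which takes the spread of the sphere lines for that of the lone array. Arrays need not come from separate cultures, so p-values measure only the spread between arrays, which may be technical. No batch is named. The limma step was tested on simulated data. Values on every array are given for genes past the threshold, apart from all ES-type arrays, brightest in their family or furthest apart in a comparison of single arrays, and more briefly for the other tested genes. The genes, lists and motifs were chosen with earlier results of these data known. Alternatives were the pseudocount, normalization, filter, probe choice, limma's trend and leaving out each array.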

Additional observations from a re-analysis of the deposited data

Results flagged for a closer look

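For 3 of the 35 tested genes the sphere lines lay on opposite sides of all 3 ES-type arrays, with line 42 above and line 21 below; 983 of 10608 genes (9.27%) did so in either orientation. The difference of line 42 minus line 21 spheres was log2 2.23 for Gjb5, 2.11 for Itgb5 and 0.68 for Cdh19, a cadherin that read 114 in line 42 and 68.7 in line 21 spheres, against 83.6 to 96.2 on the ES-type arrays. The difference between the lines was not tested, since each line has 1 array.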

How the results depend on the processing

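Taking the other probe of a gene could not change a call of the genes described. Only Cdh24 among them has a second probe, and it was too dim to be tested. Limma's trend changed no call of these genes in spheres against ES-type arrays. Quantile normalization added Itgb3bp against ES cells without 4OHT (5 genes, not 4) and took Gjb5 from reverted against ES cells (4, not 5). Without centring, Cdh13 was lost against ES cells with 4OHT (3, not 4) and Itgb3bp against the reverted cells (5, not 6), Cldn12 took the place of Gjb5 in reverted against ES cells, and Cdh22 was added between the sphere lines (9, not 8). With a pseudocount of 16, limma called 0 of the genes between spheres and ES-type arrays, 1 lay apart from all ES-type arrays, 2 and 3 were 2-fold apart from ES cells with 4OHT and from the reverted cells, 3 differed between reverted and ES cells, and 311 of all genes differed with 4OHT in ES cells (488 as reported). With a 60th percentile filter, which leaves fewer genes, those counts of spheres against ES-type arrays were 0 and 1, 2 against the ES cells lacking 4OHT, 1 against those given it and 3 against the reverted ones, with 5 between the sphere lines and 313 of all genes with 4OHT. With no filter the last was 753. With the spread of the sphere lines as error, limma called 0 genes, and 0 of those described, in each comparison of 2 single arrays (147 and 325 of all genes at an unadjusted p under 0.05 for 4OHT and for reversion).

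Leaving out 1 array at a time gave 0 to 284 limma calls over all genes and 0 to 2 of those described, and 558 to 1015 and 2 to 5 apart from all ES-type arrays. With 1 sphere line, 1893 to 2270 genes and 10 to 11 of those described were 2-fold apart from ES cells without 4OHT, 2136 to 2707 and 7 to 12 from ES cells with 4OHT, and 1708 to 2289 and 9 to 12 from reverted cells. Cdh2, at log2 0.23 (SE 0.89) for spheres minus ES-type arrays, was 1.39 without line 42 spheres and turned to -0.92 without line 21 spheres and to -0.38 without ES cells with 4OHT. The cause was not tested. No paired analysis was possible because the groups share fewer than 2 replicate numbers.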

Other observations

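Return to the ES cell level was described, after the values were seen, with genes chosen on other arrays than those compared. In 8 of the genes, line 42 spheres differed 2-fold or more from the ES cells given 4OHT. For 5 of these (Gja1, Itgb7, Itgb5, Cldn11 and Cdh22) reverted cells lay nearer to ES cells without 4OHT than to line 21 spheres, and for Itgb1, Cdh13 and Cldn5 nearer to the spheres. The share over all 2156 genes so chosen was 65.9%. Line 21 spheres did not share the line 42 change in every gene. Against ES cells with 4OHT, line 42 and line 21 stood at log2 1.42 and -0.69 for Itgb5 and 2.08 and -0.27 for Cldn5. For Itgb1 they stood at -1.11 and 0.24, and for Cdh22 at 1.02 and 0.05. In such genes nearness to ES cells cannot show a return. Itgb7 passed the brightness filter through the ES-type arrays alone, and Cdh22 and Cldn5 through the spheres alone. In RefSeq's gene order 11 pairs of the genes described are direct neighbours, such as Gja3 and Gjb2, Itga1 and Itga2, or Cdh9 and Cdh10. In none of the pairs did both genes pass the brightness filter.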
